A study of Rattus norvegicus with 8 samples.

Results

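The regulators of G-protein signalling (the Rgs family) and the receptor Gper1 were followed in C6, an established rat glioma line with glial features, on 8 oligonucleotide arrays from a study that its labels describe by the word migration. The members were all probe sets whose gene symbol is Rgs followed by a number, those of low signal included, and that of Gper1. They were 11 probe sets for 10 genes, of 7006 probe sets for 4736 genes that carried a single symbol on the array. The arrays fell into 4 groups of 2, C6SPGFP fast, C6SPGFP slow, C6 fast and C6 slow, grouped by sample title. All are cells of the C6 line, and the labels give no agent, dose or time. The labels used here do not say what C6SPGFP stands for, how fast and slow cells were separated, or whether a group is a clone. They also leave out whether replicates came from separate cultures, so the p-values cover the spread of these arrays alone, which may be technical.

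Rgs proteins share an RGS domain that speeds up the hydrolysis of GTP by the alpha subunits of heterotrimeric G proteins, and so shortens the signal of G protein-coupled receptors. Subfamilies differ in what surrounds that domain. Members of the R4 subfamily (here Rgs1, Rgs4, Rgs8 and Rgs18) are small proteins with little else, Rgs9 of the R7 subfamily pairs with a G protein beta subunit, Rgs19 belongs to the RZ subfamily, and Rgs12 and Rgs14 of the R12 subfamily also carry Ras-binding domains and a GoLoco motif that holds inhibitory alpha subunits in their GDP-bound state. Gper1 is a G protein-coupled receptor of the cell's membranes that responds to oestrogen. G protein-coupled receptors for lysophospholipids, chemokines and thrombin are known to steer the migration of glioma cells, and Rgs4 is known from work on human glioma cell migration.

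The promoters of Rgs12, Rgs14 and Rgs18 are shown because these are the Rgs genes whose signals set the C6 fast arrays apart, the first and second lower there and the third higher. The 250 bases before each annotated start were taken from RefSeq on GRCr8, on the gene's own strand (minus for each), and capitals mark the motif GGGCGG or its reverse complement CCGCCC. The Rgs12 gene is annotated at chr14:79940561-80048637, so its window lies inside the gene, before an internal start. The windows of Rgs14 and Rgs18 lie directly upstream of the whole annotated gene.
Rgs12, chr14:80034860-80035109: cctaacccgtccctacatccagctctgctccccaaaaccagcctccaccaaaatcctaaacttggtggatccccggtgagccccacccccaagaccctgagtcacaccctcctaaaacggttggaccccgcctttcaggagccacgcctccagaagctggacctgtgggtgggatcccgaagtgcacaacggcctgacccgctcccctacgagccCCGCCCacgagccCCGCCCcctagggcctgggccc
Rgs14, chr17:9268234-9268483: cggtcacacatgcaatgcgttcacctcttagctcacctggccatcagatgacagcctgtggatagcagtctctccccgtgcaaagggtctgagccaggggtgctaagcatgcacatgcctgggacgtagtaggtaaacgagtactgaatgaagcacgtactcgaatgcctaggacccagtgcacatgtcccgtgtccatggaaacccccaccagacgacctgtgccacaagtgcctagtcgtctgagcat
Rgs18, chr13:59066343-59066592: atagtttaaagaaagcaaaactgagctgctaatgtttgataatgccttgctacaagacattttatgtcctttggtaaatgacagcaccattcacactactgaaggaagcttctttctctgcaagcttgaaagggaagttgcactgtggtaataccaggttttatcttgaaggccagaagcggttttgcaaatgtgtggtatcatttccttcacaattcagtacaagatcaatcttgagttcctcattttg
The Rgs12 window held 2 copies of this GC box, and the Rgs14 and Rgs18 windows held none, while 30.5% of 33469 such windows held at least 1. The TATA motif TATAAA, held by 12.9% of all windows, was in none of these 3 on either strand. Neither was the CCAAT box, held by 34.0%, or the E-box CACGTG, held by 5.59%. The GC content was 65.2% for Rgs12, 55.6% for Rgs14 and 38.4% for Rgs18, against a median of 51.2% and quartiles of 44% and 60% over all windows. The windows of Rgs12 and Rgs14, the R12 genes, held 12 and 10 CpG sites, and that of Rgs18 held 1, against a median of 5 and quartiles of 2 and 15. The counts of Rgs12 and Rgs14 thus lay within the quartiles. The genes Rgs1, Rgs4, Rgs8 and Rgs18 all lie on chromosome 13 in GRCr8, and of these Rgs18 alone passed a test in the comparisons made here.

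The deposited signals are intensities on a linear scale. Their 2% trimmed mean was 100.1 to 105.8 on 7 arrays and 500.5 on C6SPGFP fast replicate 1, which thus stood apart. The arrays were therefore quantile normalised, and the members' calls that rest on that array are also given without it. A normalised signal of 8, near the 25th percentile of 7.55, was the minimum mean for testing, and 6684 probe sets passed. Changes are of log2(signal + 8), which understates those of low signals, and the number of arrays limits the precision. The summed signal of the glial markers was lowest on the C6 fast arrays. Of 5 tested markers 4 fell in C6 fast against C6 slow cells, among them S100b and Sox10, where 3.96% of all tested probe sets fell. Vim, the main intermediate filament of C6 cells, had signals of 2594 and 2723 in C6 fast cells, against 3082 and 2681 in C6 slow cells (adjusted p = 0.611). The summed signal of the 5 was 2940 and 3160 in C6 fast cells, against 5061 and 4895 in C6 slow cells, and Sox10, a transcription factor of myelinating glia, had 2.23 and 0.9 in C6 fast cells, against 240 and 367 in C6 slow cells. The sums were 6782 and 6862 in C6SPGFP fast cells, against 7123 and 7263 in C6SPGFP slow cells. In C6SPGFP 1.39% of all tested probe sets passed in either direction. Here 1 of the 5 fell, the myelin enzyme Cnp (647 and 655 in C6SPGFP fast cells, against 1199 and 1292 in C6SPGFP slow cells, adjusted p = 0.0453), a call lost without any 1 C6SPGFP array (0.181 to 0.343) or C6 fast replicate 1 (0.0585) or 2 (0.057), while Vim had 3602 and 3831 in C6SPGFP fast cells, against 3256 and 3102 in C6SPGFP slow cells (adjusted p = 0.506). The part of these markers in the results below was not tested, and fewer cells of a kind and less RNA per cell cannot be told apart in such bulk samples.

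Of the 11 probe sets, 6 passed the filter, those of Gper1 (U92802_at), Rgs12 (AF035151_s_at), Rgs14 (U92279_at), Rgs19 (AF068136_at) and Rgs22 (rc_AI639247_at) and 1 of the 2 for Rgs8 (AB006013_at). The other 5 did not, those of Rgs1 (rc_AA892750_at), Rgs4 (U27767_at), Rgs9 (AB019145_s_at) and Rgs18 (rc_AI639103_s_at) and the second for Rgs8 (rc_AI144709_s_at). Fast C6 cells were first set against slow ones, to ask which of these transcripts differ with migration speed. In this comparison 3 of the 6 tested probe sets fell and none rose, where 3.96% of all tested probe sets fell and 2.69% rose at an adjusted p under 0.05 (6.66% in either direction). The members were chosen with results of these data known, so this share is a description. Where arrays of a group are said to lie apart from others, the share of all probe sets that do so is not given. In C6SPGFP none of the 6 passed (limma, Benjamini-Hochberg), where 1.39% of all tested probe sets did. An unadjusted p under 0.05 was reached by Gper1 and Rgs22, where 648 of all 6684 tested probe sets reached it.

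**Figure D1:**
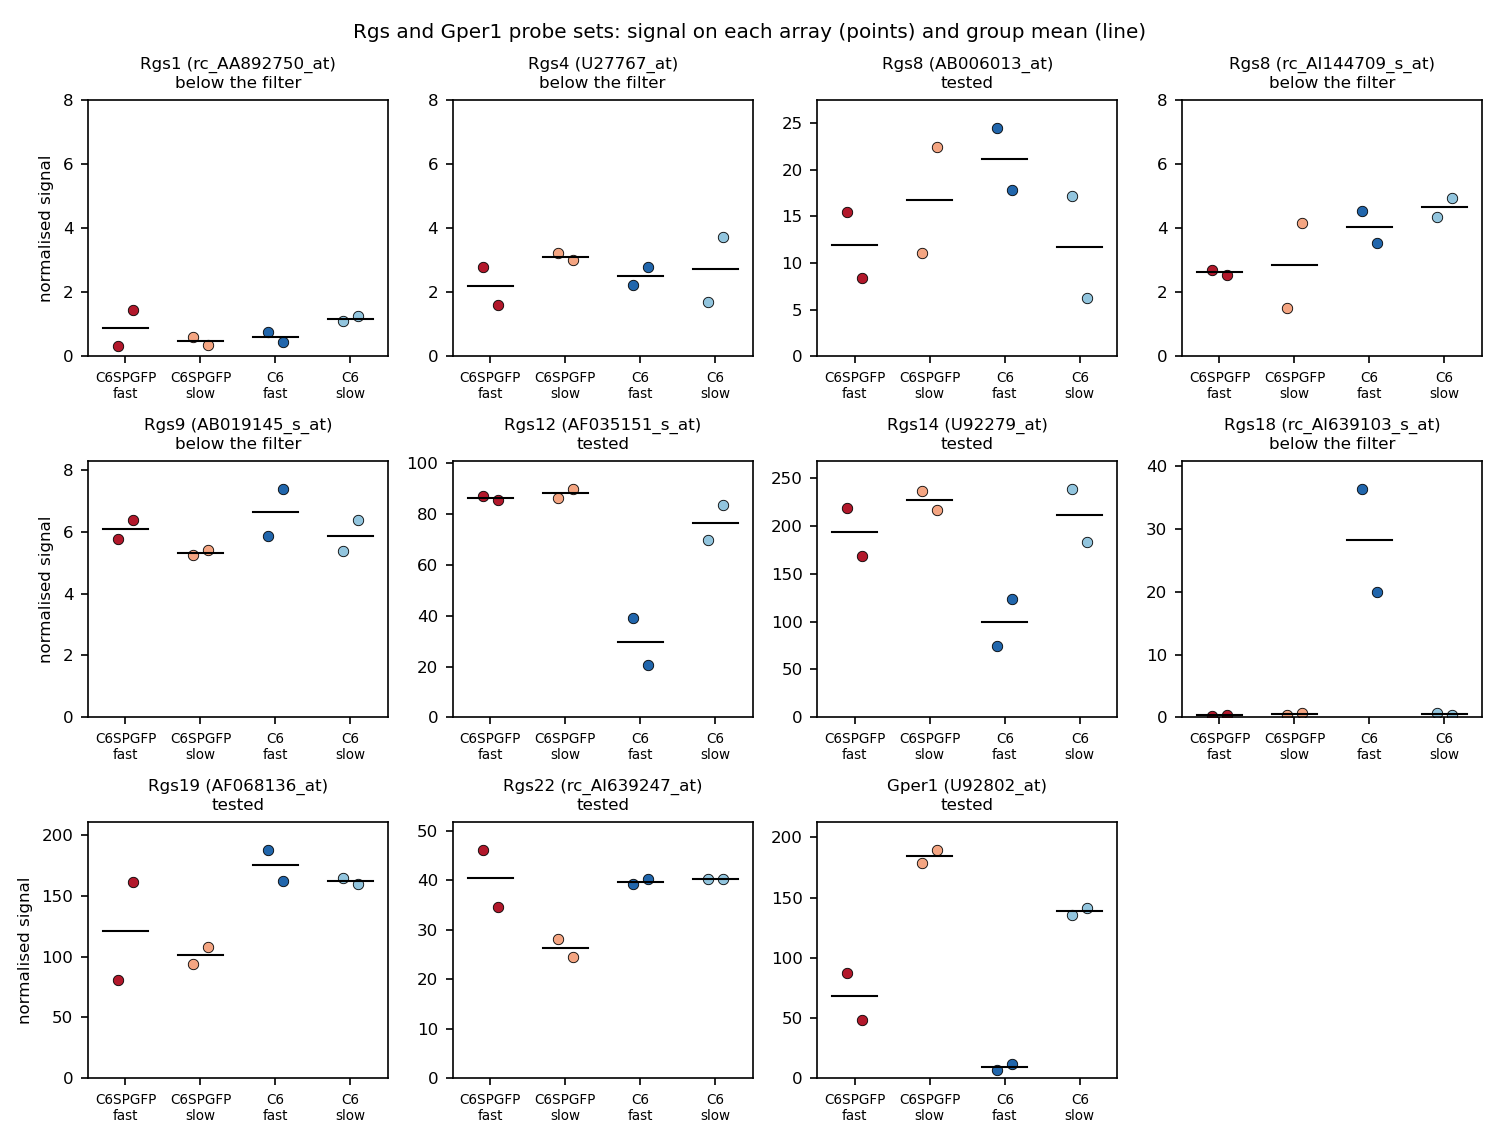
Normalised signal (linear axis from 0) of each of the 11 Rgs and Gper1 probe sets on each array (points) with the group mean (line), for C6SPGFP fast, C6SPGFP slow, C6 fast and C6 slow cells. Gper1, Rgs12 and Rgs14 were lowest and Rgs18 highest on both C6 fast arrays, while Rgs1, Rgs4, Rgs9 and the second Rgs8 probe set stayed under 8 on all arrays. The share of all probe sets with such an order of arrays is not given here.

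Gper1 had the largest change of the 6 in C6. Its signal was 7.18 and 11.7 on the C6 fast arrays, against 136 and 141 on the C6 slow arrays. It was 87.2 and 48.7 on the C6SPGFP fast arrays, against 179 and 190 on the C6SPGFP slow arrays. The groups do not overlap in either set, and the order of the 4 groups, from low to high, was C6 fast, C6SPGFP fast, C6 slow and C6SPGFP slow, with no overlap between neighbours. In C6 the log2 change was -3.08 ± 0.27 (SE, n = 2 arrays per group, adjusted p = 0.000263), an 8.47-fold lower signal plus 8, and Gper1 ranked 47 of 6684 by p. Leaving out any 1 array kept this call. When the deposited scale of each array was kept, the log2 change was -2.86, nearly as large, with an adjusted p of 0.398.

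In C6SPGFP the log2 change of Gper1 was -1.39 ± 0.27 (adjusted p = 0.0507), which missed the threshold. Without C6SPGFP fast replicate 1 it was -1.76 and passed (adjusted p = 0.0468). The change in C6SPGFP minus that in C6 was 1.69 ± 0.38 (adjusted p = 0.0491), a smaller decrease in C6SPGFP, and 1 of the 6 tested probe sets passed this test of the difference where 3.82% of all tested probe sets did and 2.71% were positive. Leaving out C6SPGFP fast replicate 2 kept that call (adjusted p = 0.03). It was lost without C6 fast replicate 1 (0.131) or 2 (0.074), C6 slow replicate 1 (0.116) or 2 (0.0978), C6SPGFP slow replicate 1 (0.153) or 2 (0.165), or C6SPGFP fast replicate 1 (1.32 on the log2 scale, 0.135).

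The R12 genes fell in fast C6 cells. Rgs12, whose protein links G protein alpha subunits to Ras and Raf signalling, had signals of 39.0 and 20.5 on the C6 fast arrays, against 69.8 and 83.4 on the C6 slow arrays. It had 87.1 and 85.6 on the C6SPGFP fast arrays, against 86.3 and 90.0 on the C6SPGFP slow arrays. Only the C6 fast arrays were low, and the groups overlap in C6SPGFP. The log2 change was -1.21 ± 0.26 in C6 (SE, n = 2 arrays per group, adjusted p = 0.026) and -0.03 ± 0.26 in C6SPGFP (adjusted p = 0.988, 95% interval from -0.61 to 0.56). The difference of these changes was 1.18 ± 0.36 and did not pass (adjusted p = 0.151), so that the decrease is not shown to differ between the sets. Without C6SPGFP fast replicate 1 the C6SPGFP change was -0.04 and the difference 1.17 (adjusted p = 0.987 and 0.301), and without C6 fast replicate 1 the difference was 1.54 and passed (0.0404). The call in C6 held without C6 fast replicate 1 and was lost without C6 fast replicate 2 (0.102), C6 slow replicate 1 (0.0691) or 2 (0.102), C6SPGFP slow replicate 1 (0.0549) or 2 (0.0548), or C6SPGFP fast replicate 1 (0.0528) or 2 (0.0527).

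Rgs14, which like Rgs12 binds Ras and Rap proteins and is best known from hippocampal neurons, had signals of 74.8 and 124 on the C6 fast arrays, against 239 and 183 on the C6 slow arrays. It had 219 and 168 on the C6SPGFP fast arrays, against 237 and 216 on the C6SPGFP slow arrays. Again the C6 fast arrays lay below all others, while the C6 slow arrays overlap both C6SPGFP groups. The log2 change was -1.06 ± 0.26 in C6 (adjusted p = 0.0481) and -0.23 ± 0.26 in C6SPGFP (adjusted p = 0.854, 95% interval from -0.82 to 0.36), and their difference of 0.83 ± 0.37 did not pass (adjusted p = 0.329). Without C6SPGFP fast replicate 1 these were -0.41 and 0.65 (adjusted p = 0.803 and 0.574). The call in C6 held without C6 fast replicate 2 and was lost without C6 fast replicate 1 (0.168), C6 slow replicate 1 (0.206) or 2 (0.0612), C6SPGFP slow replicate 1 (0.0875) or 2 (0.0867), or C6SPGFP fast replicate 1 (0.0733) or 2 (0.0724).

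**Figure D2:**
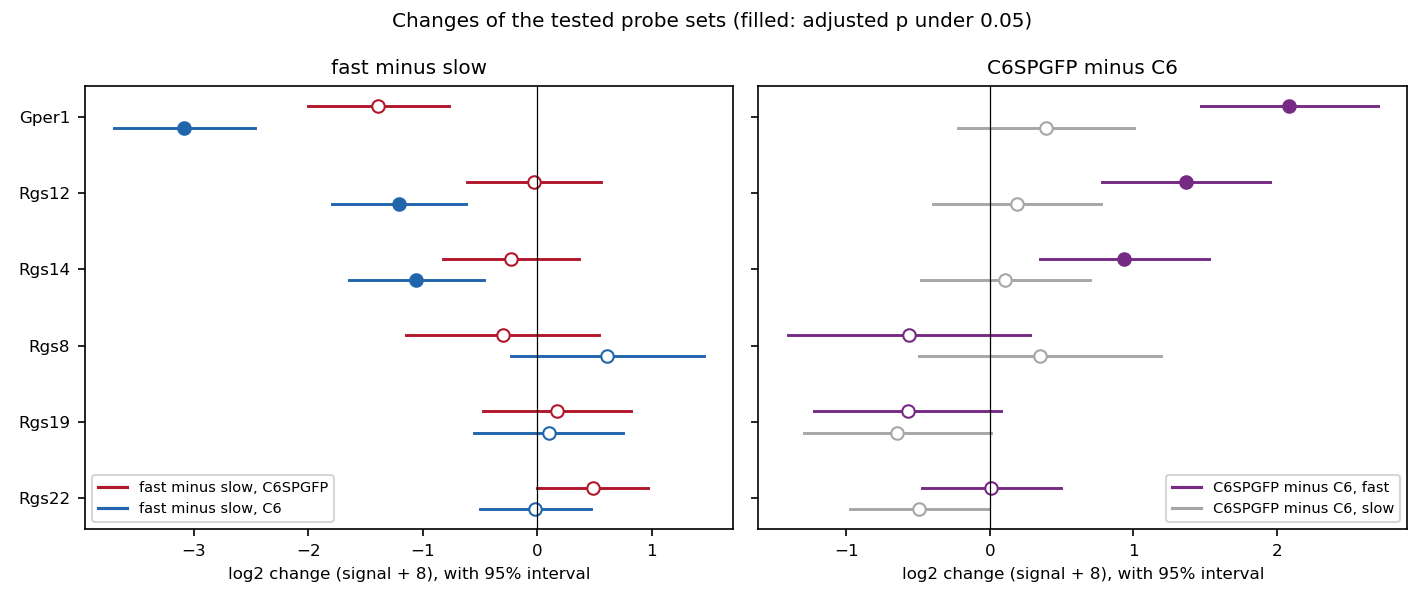
Log2 changes of signal + 8 with their 95% intervals (horizontal axis) for the 6 tested probe sets, fast minus slow on the left (C6SPGFP above C6) and C6SPGFP minus C6 on the right (fast above slow cells), with filled points for an adjusted p under 0.05. Gper1, Rgs12 and Rgs14 were called lower in C6 fast than in C6 slow cells and higher in C6SPGFP fast than in C6 fast cells, and no other point is filled.

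Rgs18, known from platelets and other haematopoietic cells, went the other way at a low signal. It had 36.5 and 19.9 on the C6 fast arrays, against 0.763 and 0.350 on the C6 slow arrays. It had 0.25 and 0.338 on the C6SPGFP fast arrays, against 0.313 and 0.738 on the C6SPGFP slow arrays. Both C6 fast arrays were thus above all 6 others, none of which reached a signal of 1. Its mean of 7.39 lay just under the filter, and in a fit without the filter the log2 change in C6 was 2.04 ± 0.20 (adjusted p = 0.00147), where 1.95% of 8740 probe sets rose and 4.76% passed in either direction. The C6SPGFP change was -0.04 ± 0.20 (adjusted p = 0.992), where 0.812% of probe sets passed. The difference of the changes was -2.08 ± 0.29 (adjusted p = 0.0117), where 2.80% passed and 0.858% were negative. The call in C6 held without any 1 array, with adjusted p from 0.000452 to 0.0157. That on the difference was lost without C6SPGFP slow replicate 1 (0.0512) or 2 (0.0662), or C6SPGFP fast replicate 1 (0.0634) or 2 (0.0591).

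Among the markers of microglia and haematopoietic cells, 1 of 4 tested rose in C6 fast cells, the tetraspanin Cd37 (40.0 and 66.2 in C6 fast cells, against 16.2 and 13.0 in C6 slow cells, adjusted p = 0.0271), and none fell, where 2.69% of all tested probe sets rose. The Cd37 call was lost without C6 fast replicate 2 (0.154), C6 slow replicate 1 (0.0791) or 2 (0.101), or C6SPGFP fast replicate 1 (0.0504) or 2 (0.0504). The summed signal of the 7 markers on the array was 139 and 147 in C6 fast cells, against 94.4 and 88.1 in C6 slow cells, and 104 and 104 in C6SPGFP fast cells, against 102 and 95.2 in C6SPGFP slow cells. Cd37 had the largest difference of the 7, with averages of 53.1 in C6 fast and 14.6 in C6 slow cells. Itgam and C1qb, defining genes of microglia, averaged 2.70 and 3.26 in C6 fast and 1.95 and 3.38 in C6 slow cells, while Ptprc, the common leukocyte antigen, averaged 47.3 in C6 fast and 36.8 in C6 slow cells. Aif1 and Csf1r averaged 16.1 and 13.7 in C6 fast and 13.3 and 12.2 in C6 slow cells. Cd53 was lower in C6 fast (6.59) than in C6 slow cells (9.03). None of the 7 had a signal of 0 on any array, but only 0.0781% of all deposited values were 0, so this does not show that they were detected. On each array 2 to 4 of the 7 lay under 8. The part of such cells in the Rgs18 signal was not tested. Of the neuronal and of the endothelial and mural markers, none of 3 and none of 4 tested passed in C6 or in C6SPGFP. The shares of all tested probe sets that passed were 6.66% in C6 and 1.39% in C6SPGFP.

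The 3 remaining tested probe sets passed in no comparison. Rgs19, also called GAIP, had 188 and 162 on the C6 fast arrays, against 164 and 160 on the C6 slow arrays, and 81.0 and 161 on the C6SPGFP fast arrays, against 93.8 and 108 on the C6SPGFP slow arrays. Its changes were 0.10 ± 0.28 in C6 and 0.17 ± 0.28 in C6SPGFP (adjusted p = 0.908 and 0.901), and the C6SPGFP fast arrays lay on both sides of the C6SPGFP slow ones. The C6SPGFP change was 0.638 without fast replicate 1 (adjusted p = 0.445). Rgs22, known from human testis, had 39.2 and 40.2 on the C6 fast arrays, against 40.2 and 40.2 on the C6 slow arrays, and 46.2 and 34.6 on the C6SPGFP fast arrays, against 28.1 and 24.6 on the C6SPGFP slow arrays. Its change was -0.02 ± 0.21 in C6 (adjusted p = 0.986), and its C6SPGFP change of 0.48 ± 0.21 failed the adjustment (unadjusted p = 0.0495, adjusted p = 0.515). Without C6SPGFP fast replicate 1 that change was 0.311 (adjusted p = 0.812).

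Rgs8, a gene of cerebellar Purkinje cells, had 24.5 and 17.8 on the C6 fast arrays, against 17.2 and 6.20 on the C6 slow arrays, and 15.4 and 8.38 on the C6SPGFP fast arrays, against 11.1 and 22.4 on the C6SPGFP slow arrays. The C6 fast arrays lay just above the C6 slow ones, and the C6SPGFP groups overlap. The changes were 0.61 ± 0.37 in C6 and -0.30 ± 0.37 in C6SPGFP (adjusted p = 0.432 and 0.863), and the C6SPGFP one was -0.56 without fast replicate 1 (0.811). The other Rgs8 probe set was below the filter, from 1.53 to 4.94 over the arrays. Low signals were also found for Rgs4 (1.60 to 3.74), for Rgs1 of lymphocytes (0.325 to 1.44) and for Rgs9 of photoreceptors and striatal neurons (5.24 to 7.39). Whether these signals were above background is not known here, and in the fit without the filter none of these 4 probe sets passed in any of the 5 comparisons, where the share of all probe sets that passed ran from 0.812% in C6SPGFP to 10.9% between fast cells and was 3.98% between slow cells. For Rgs4 the changes there were -0.02 ± 0.12 in C6 and -0.13 ± 0.12 in C6SPGFP (adjusted p = 0.961 and 0.867), on a scale that draws changes at such signals towards 0. Other Rgs genes, Rgs3 among them, were not analysed here.

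**Figure D3:**
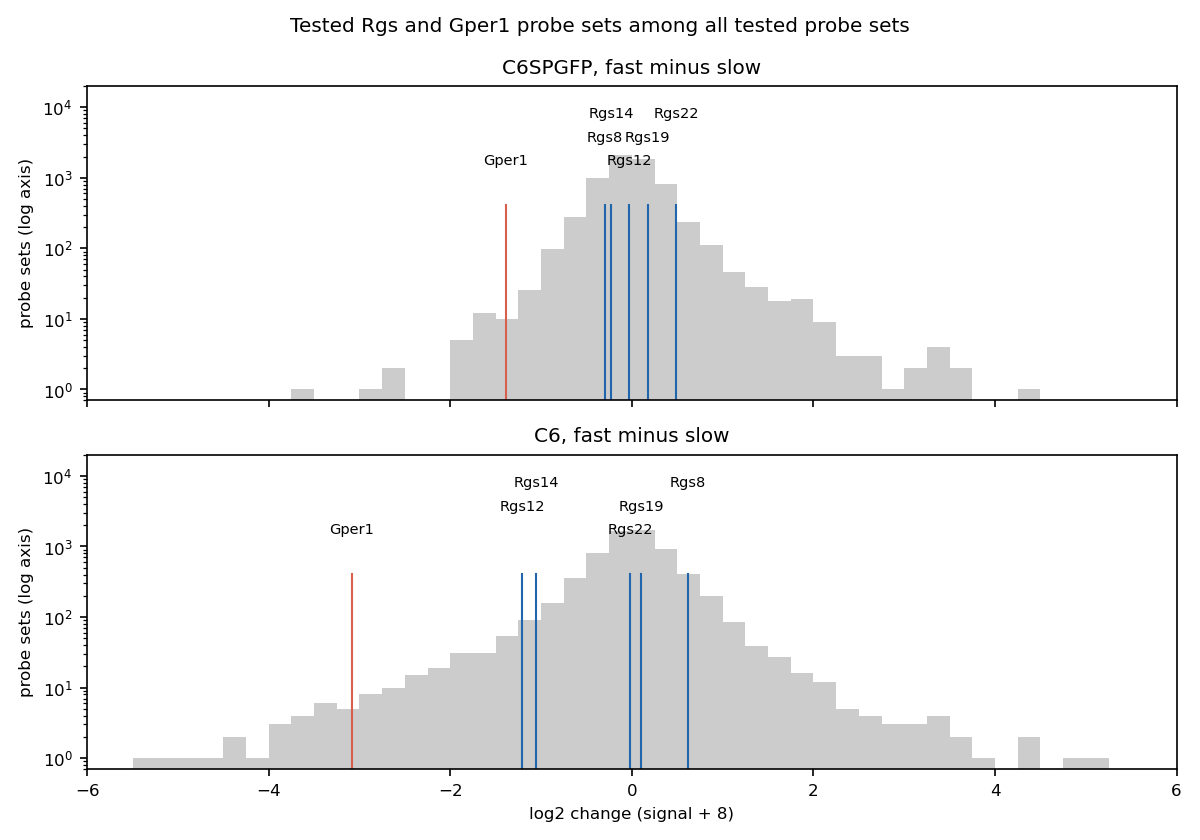
Number of tested probe sets (log axis) by log2 change of signal + 8, fast minus slow, in C6SPGFP (top) and C6 (bottom), with vertical lines at the tested Gper1 (red) and Rgs (blue) probe sets. Gper1 lay in the lower tail in both sets, at -1.39 and -3.08, Rgs12 and Rgs14 lay below -1 in C6 only, and Rgs8, Rgs19 and Rgs22 lay among the bulk.

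Compared with C6 cells of the same speed, C6SPGFP cells differed in these genes among fast cells. There 3 of 6 tested probe sets were higher in C6SPGFP and none was lower, where 8.29% of all tested probe sets were higher, 7.30% were lower and 15.6% passed in either direction. This comparison shares the C6 fast arrays with that of fast and slow C6 cells, so its calls on the same genes are not separate evidence. The log2 change was 2.09 ± 0.27 for Gper1 (adjusted p = 0.00127), 1.37 ± 0.26 for Rgs12 (adjusted p = 0.00822) and 0.94 ± 0.26 for Rgs14 (adjusted p = 0.0428). Without C6SPGFP fast replicate 1 these were 1.71 (adjusted p = 0.00996), 1.36 (0.053) and 0.757 (0.211), so that the Gper1 call held and the others were lost. The Rgs12 call was also lost without C6SPGFP fast replicate 2 (0.0532), and that of Rgs14 without C6 fast replicate 1 (0.192), C6SPGFP fast replicate 2 (0.0883), or C6SPGFP slow replicate 1 (0.0727) or 2 (0.0724). The glial markers were higher among fast cells too. All 5 tested were higher in C6SPGFP fast than in C6 fast cells, with a median log2 change of 2.77 against -0.03 over all tested probe sets, among them S100b (4.11 ± 0.16, adjusted p = 2.12e-06) and Sox10 (5.49 ± 0.22, adjusted p = 2.73e-06), and 1 call of the 5, that of Vim, was lost without C6 fast replicate 1 (0.0749) or C6SPGFP fast replicate 2 (0.0821). Between slow cells 2 of the 5 were higher in C6SPGFP, S100b (1.57 ± 0.16, adjusted p = 0.00132) and Cnp (1.46 ± 0.18, adjusted p = 0.00285), and none was lower, while without C6 slow replicate 2 the count was 3. Of all tested probe sets 6.34% passed between slow cells, 51.9% of these higher in C6SPGFP. In the fit without the filter Rgs18 was lower in C6SPGFP fast cells, by -2.09 ± 0.20 on the log2 scale (adjusted p = 0.00093), where 4.97% of probe sets were lower.

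Among slow cells none of the 6 tested probe sets passed (limma, Benjamini-Hochberg), where 6.34% of all did, and the lowest adjusted p were 0.232 for Rgs22 and 0.243 for Rgs19. Of the 6 only Rgs22 reached an unadjusted p under 0.05, with a log2 change of -0.49 ± 0.21 (unadjusted p = 0.0473), where 1401 of all 6684 tested probe sets did. Rgs19 was at -0.64 ± 0.28 in slow and -0.57 ± 0.28 in fast cells (adjusted p = 0.243 and 0.228). Without C6SPGFP fast replicate 2, whose Rgs19 signal was the higher of its group, the change in fast cells was -1.04 and passed (adjusted p = 0.0396). It was -0.11 without C6SPGFP fast replicate 1 (adjusted p = 0.842). Gper1 differed by 0.39 ± 0.27 among slow cells (adjusted p = 0.461), with a 95% interval from -0.22 to 1.01.

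The patterns over the 8 arrays are given as a description, since the arrays share 4 groups and the C6 fast pair is far from the others in many of these genes. Pearson's r of the log2 values was 0.92 between Gper1 and Rgs14, 0.84 between Gper1 and Rgs12 and 0.73 between Rgs12 and Rgs14. For Rgs19 r was -0.57 with Gper1, -0.63 with Rgs14 and -0.53 with Rgs12. The genes most like Gper1 were the lysosomal acid lipase Lipa (r = 0.98), the zinc finger gene Plagl1 (0.98) and Myrf, a transcription factor of oligodendrocytes (0.97). Those most like Rgs12 were the class I gene RT1-S3 (0.99), the ganglioside synthase St3gal5 (0.99) and the focal adhesion protein Tns3 (0.98). St3gal5, for instance, averaged 83.7 in C6 fast cells, against 438 in C6 slow cells. Those most like Rgs14 were Phldb1 (0.98), the tensin Tns1 (0.96) and the synaptotagmin Syt17 (0.95). For Rgs19 they were Atp2b3 (0.97), Scp2 (0.96) and Egr4 (0.96), for Rgs22 Crybb3 (0.94), Nras (0.93) and Grn (0.92), and for Rgs8 Pvalb (0.98), Mogs (0.92) and Ube2q2 (0.92).

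Of 82 tested G protein-coupled receptors, Gper1 not among them, 3 rose and 3 fell in C6, a share close to the 6.66% of all tested probe sets, with a median log2 change of 0.11 against 0.01 over all. Those that fell included the beta-1 adrenergic receptor Adrb1 (3.51 and 5.25 in C6 fast cells, against 48.9 and 60.5 in C6 slow cells, log2 change -2.34 ± 0.21, adjusted p = 0.000295) and the nucleotide receptor P2ry2 (log2 change -1.24 ± 0.24, adjusted p = 0.0175). Those that rose included the cannabinoid receptor Cnr1 (43.7 and 33.3 in C6 fast cells, against 2.96 and 11.5 in C6 slow cells, log2 change 1.66 ± 0.33, adjusted p = 0.0204) and F2rl1, a receptor cleaved by proteases (0.98 ± 0.19, adjusted p = 0.017). Cnr1 averaged 7.07 in C6SPGFP fast, 6.97 in C6SPGFP slow and 7.22 in C6 slow cells. It thus passed the filter of 8 only through the C6 fast arrays, on which its call also rests. The Adrb1 call held without any 1 array. The others depended on single arrays. That of P2ry2 was lost without C6 fast replicate 1 (0.0529) or 2 (0.087) or C6 slow replicate 1 (0.0768) or 2 (0.0612), that of Cnr1 without C6 fast replicate 1 (0.105) or 2 (0.0658) or C6 slow replicate 1 (0.0995), and that of F2rl1 without C6 fast replicate 2 (0.0976) or C6 slow replicate 2 (0.0717). In C6SPGFP 1 receptor of the 82 rose and none fell, which is no larger a share than the 1.39% of all tested probe sets called there. It was the gonadotropin-releasing hormone receptor Gnrhr, with 91.3 and 89.8 in C6SPGFP fast cells, against 1.69 and 0.55 in C6SPGFP slow cells (log2 change 3.44 ± 0.24, adjusted p = 0.000316), and this call also held without any 1 array.

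**Figure D4:**
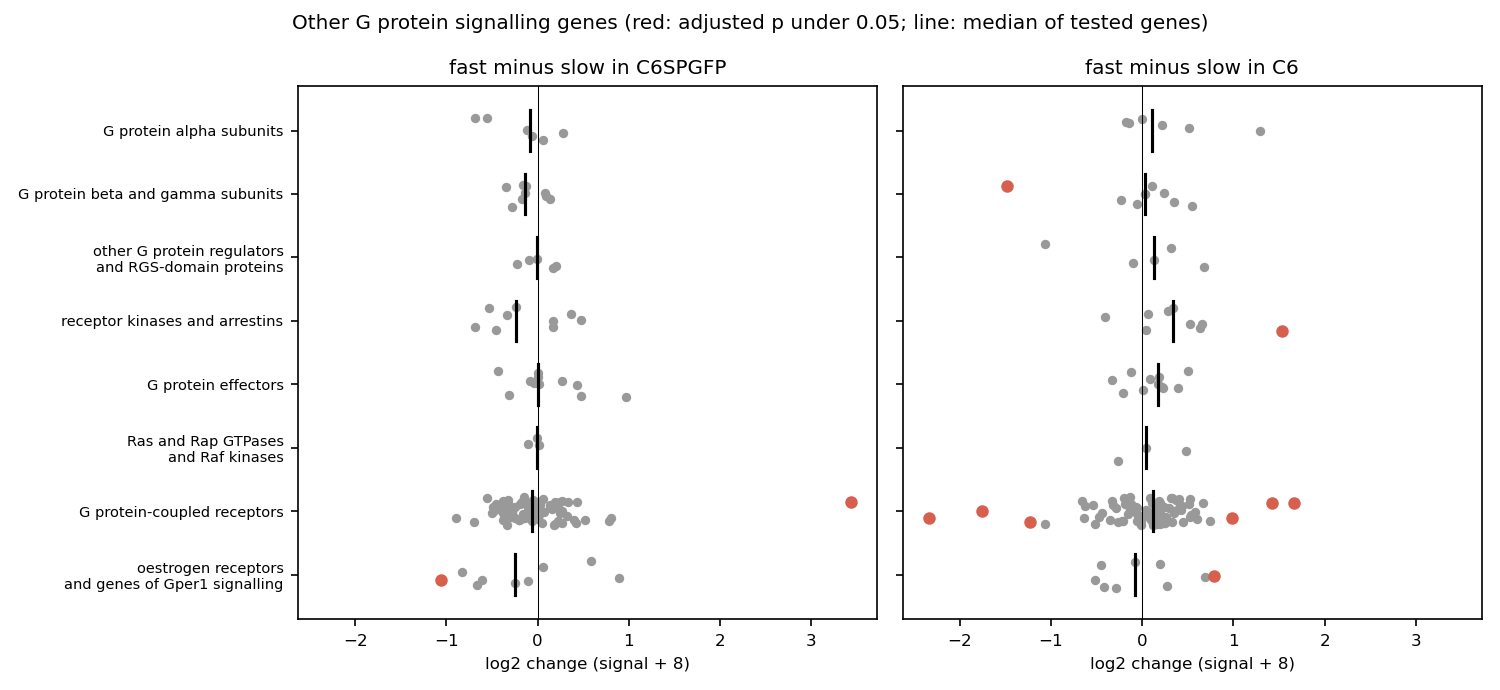
Log2 change of signal + 8 (horizontal axis), fast minus slow, of each tested gene of 8 lists of G protein signalling in C6SPGFP (left) and C6 (right), with red points for an adjusted p under 0.05 and a line at each list's median. Most genes lay within 1 log2 unit of 0, and the called ones were single members such as Adrb1, Cnr1, Arrb1 and Gng11 in C6 and Gnrhr and Hbegf in C6SPGFP.

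No alpha subunit of 6 tested, the direct targets of Rgs proteins, passed in C6 or in C6SPGFP. Of all tested probe sets 6.66% passed in C6 and 1.39% in C6SPGFP, and with so few genes none passing is near these shares. The inhibitory subunit Gnai2 was at 0.52 ± 0.21 in C6 (adjusted p = 0.224) and 0.06 ± 0.21 in C6SPGFP (adjusted p = 0.965, and -0.11 without C6SPGFP fast replicate 1), and it passed in C6 without C6 slow replicate 2 (log2 change 0.83, adjusted p = 0.0443). Gnaz, also an inhibitory subunit, was at 1.29 ± 0.38 in C6 (adjusted p = 0.088) and 0.27 ± 0.38 in C6SPGFP (adjusted p = 0.875, and 0.06 without C6SPGFP fast replicate 1), and it passed in C6 without C6 slow replicate 1 (log2 change 1.81, adjusted p = 0.0322). Of 9 beta and gamma subunits 1 fell in C6, where 3.96% of all tested probe sets fell. This was the gamma subunit Gng11 (5.08 and 0.763 in C6 fast cells, against 24.6 and 19.7 in C6 slow cells, log2 change -1.49 ± 0.26, adjusted p = 0.0101), and none passed in C6SPGFP. The Gng11 call was lost without C6 fast replicate 2 (0.0522) or C6 slow replicate 1 (0.0661). Of 9 receptor kinases and arrestins 1 rose in C6, where 2.69% of all tested probe sets rose. This was the beta-arrestin Arrb1 (92.6 and 148 in C6 fast cells, against 31.5 and 39.6 in C6 slow cells, log2 change 1.53 ± 0.26, adjusted p = 0.00938). It too was lost without C6 fast replicate 2 (0.0576) or C6 slow replicate 1 (0.0618). The list's median was 0.33 in C6 and -0.23 in C6SPGFP, against 0.01 and -0.02 over all tested probe sets, and none passed in C6SPGFP.

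Of 5 other G protein regulators, 11 effectors and 3 Ras, Rap and Raf genes none passed in C6 or in C6SPGFP, where 6.66% and 1.39% of all did. Between fast cells of the sets 1 of the 5 regulators was higher in C6SPGFP and 2 were lower, where 15.6% of all tested probe sets passed. The higher one was Pdcl, a phosducin-like protein that binds beta and gamma subunits (404 and 471 in C6SPGFP fast cells, against 248 and 225 in C6 fast cells, adjusted p = 0.0188), a call lost without C6 fast replicate 1 (0.0559) or 2 (0.0828) or C6SPGFP fast replicate 1 (0.0568) or 2 (0.128). Nucb1, a calcium-binding protein that also binds alpha subunits, was lower (1050 and 971 in C6SPGFP fast cells, against 1297 and 1393 in C6 fast cells, adjusted p = 0.0451), a call lost without any 1 array of these groups (0.0952 to 0.215) or C6SPGFP slow replicate 1 (0.0736) or 2 (0.0744). Axin1, a scaffold of Wnt signalling with an RGS domain, was lower too (184 and 180 in C6SPGFP fast cells, against 339 and 254 in C6 fast cells, adjusted p = 0.0428), which was lost without C6 fast replicate 1 (0.185), C6SPGFP fast replicate 1 (0.146) or 2 (0.175), or C6SPGFP slow replicate 1 (0.077) or 2 (0.0767). Phospholipase Plcb1, an effector of Gq, was higher in C6SPGFP (361 and 429 in C6SPGFP fast cells, against 116 and 132 in C6 fast cells, adjusted p = 0.000894), and this call held without any 1 array. Plcb1 was also higher in C6SPGFP slow than in C6 slow cells (0.82 ± 0.19, adjusted p = 0.042), a call that was lost without C6 slow replicate 1 (0.148) or 2 (0.0781) or any 1 C6SPGFP array (0.0692 to 0.269).

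Of 9 oestrogen receptor and Gper1 signalling genes 1 rose in C6, where 2.69% of all tested probe sets rose. It was Egr1, an immediate early gene (290 and 285 in C6 fast cells, against 172 and 156 in C6 slow cells, 0.78 ± 0.16, adjusted p = 0.0226). That was lost when any 1 C6 array was left out (0.0547 to 0.0857) or C6SPGFP slow replicate 1 was (0.0504). Hbegf, the growth factor through which Gper1 is known to activate the epidermal growth factor receptor, fell in C6SPGFP, where 1.39% of all tested probe sets passed (185 and 174 in C6SPGFP fast cells, against 398 and 369 in C6SPGFP slow cells, -1.06 ± 0.17, adjusted p = 0.0227). That was lost when any 1 C6SPGFP array was left out (0.117 without fast replicate 1, up to 0.178). In C6 Hbegf was at -0.45 ± 0.17 (adjusted p = 0.182), and the difference of its changes was -0.61 ± 0.24 (adjusted p = 0.269). Egr1 had 294 and 350 in C6SPGFP fast cells, against 543 and 482 in C6SPGFP slow cells, and this log2 change of -0.66 ± 0.16 did not pass (adjusted p = 0.129). The C6SPGFP slow arrays had the highest Egr1 signals of the 8, and Egr1 was higher there than in C6 slow cells (1.60 ± 0.16, adjusted p = 0.00132), a call that held without any 1 array. It was 1 of 3 genes of the 9 that were higher there, with Fos (0.97 ± 0.21, adjusted p = 0.0311) and Hbegf (0.70 ± 0.17, adjusted p = 0.0478), where 6.34% of all tested probe sets passed. The Fos and Hbegf calls were both lost without C6 slow replicate 1 (0.134 and 0.182) or any 1 C6SPGFP array (0.0579 to 0.191 for Fos and 0.0853 to 0.228 for Hbegf), and that of Hbegf also without C6 slow replicate 2 (0.0595). For Egr1 the difference of the changes was -1.45 ± 0.23 (adjusted p = 0.0111), the only gene of the 9 that passed there, where 3.82% of all tested probe sets did. This call was lost without C6SPGFP fast replicate 1 or slow replicate 1.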

How the data were processed

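Per the labels, total RNA of C6 cells was measured in 8 samples of 4 groups of 2, taken from the titles. The deposited values are probe set intensities on a linear scale, from 0 to 14287.9, for 8799 probe sets, 59 of them controls, and the sources used here do not state the authors' software, background correction or scaling. No detection calls were used here. Quantile normalisation between arrays was used because the 2% trimmed means differed by more than 10%. It sets every array to the same distribution and hides any overall shift. Testing was limited to 6684 probe sets whose normalised signals averaged 8 or more, which left out 2056.

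Log2(signal + 8) was modelled on the 4 groups in limma 3.58.1 (R 4.3.3; lmFit, contrasts.fit, eBayes with a trend). The tests were two-sided, and p-values were adjusted by Benjamini-Hochberg (5%) across the tested probe sets of each of 5 comparisons. The fit had 4 residual and 4.49 prior degrees of freedom, and the median SE was 0.24 (log2) in 1 set and 0.34 on the difference. The fit was run on simulated normal values with known changes added to C6 fast. Such a run checks the code, not the normalisation, the outlying array or the low signals. The platform's table gave 1 symbol to 7018 probe sets, several to 308 and none to 1473, and 6994 were brought to current ones by Entrez identifier. The gene lists hold 1 probe set per gene, that of highest mean signal. Every member is named. Also named are the 3 genes with the highest Pearson r to each tested member, up to 2 called genes per list, direction and comparison, Vim and S100b. Text on the lists is limited to genes so named and to genes whose values were added after they were seen (Gnai2, Gnaz, Itgam, C1qb, Ptprc, Aif1, Csf1r and Cd53). The members and lists were chosen with earlier results of these data known. The alternatives changed the normalisation, pseudocount, filter, moderation, samples fitted, block and arrays. Arrays were left out after normalisation, and the tested probe sets were kept. Promoter sequences are RefSeq's on GRCr8, with entries for 8 of the 10 genes.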

Additional observations from a re-analysis of the deposited data

Results flagged for a closer look

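Gper1 stood out because its fast minus slow change differed between the sets in a test of the difference itself. The change in C6SPGFP minus that in C6 was 1.69 ± 0.38 on the log2 scale (limma adjusted p = 0.0491), with signals of 87.2 and 48.7 in C6SPGFP fast cells, against 179 and 190 in C6SPGFP slow cells, and 7.18 and 11.7 in C6 fast cells, against 136 and 141 in C6 slow cells. The change was negative in both sets. The call kept its side of the threshold in 3 of 17 alternatives and lost it in 14, with adjusted p from 0.03 to 0.706 over all of them.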

How the results depend on the processing

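Over 571 alternative values for single members, 494 kept direction and side of the threshold, 54 lost the call, 5 gained it and 18 changed sign. Most of these values belong to results not called in the main fit, which had no call to lose. Of 18 alternatives each, the calls in C6 held in 17 for Gper1, 9 for Rgs12 and 6 for Rgs14. Those between fast cells held in 18, 15 and 8 of 18, in that order. The number of members called in C6 was 3, and 0 under the deposited scaling, 1 with only the groups compared and 1 to 2 when an array was left out. In C6SPGFP it was 0, and 1 at a pseudocount of 32, 1 with a filter at the median signal and 0 to 1 without an array, Gper1 each time. On the difference it was 1, and 0 under the deposited scaling, a common trimmed mean, cyclic loess, a pseudocount of 32, no trend and the replicate block, and 0 to 1 without an array. Without the filter it was also 1, but then Rgs18 in place of Gper1. Between fast cells it was 3, and 1 under the deposited scaling and 1 to 3 without an array. Between slow cells it was 0 throughout.

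The deposited scaling moved the median of all probe sets by up to 1.10 (log2). Under it positive changes replaced negative ones for Rgs8 (0.639), Rgs12 (1.06) and Rgs14 (0.885) in C6SPGFP, for Rgs8 (0.541) and Rgs19 (0.636) between fast cells and for Rgs8 on the difference (0.241). None of these was called. The other sign changes, also of uncalled values, came when an array was left out. There Rgs19 ran from -0.000154 to 0.203 in C6, -0.29 to 0.638 in C6SPGFP and -0.391 to 0.536 on the difference. Rgs22 ran from -0.0313 to 0.000841 in C6 and -0.165 to 0.183 between fast cells. In C6SPGFP Rgs8 ran from -0.635 to 0.0353 and Rgs12 from -0.0551 to 0.00067, and between slow cells Rgs8 ran from -0.0645 to 0.764 and Rgs14 from -0.0751 to 0.293. The cause was not tested.

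The Rgs14 calls, at adjusted p of 0.0481 in C6 and 0.0428 between fast cells, ended without the filter (0.0693 and 0.0621), without the trend (0.0671 and 0.0615) and with only the groups compared (0.151 and 0.0871), where the Rgs12 call in C6 ended too (0.119). Replicate numbers do not pair the arrays by any label, and replicate 1 minus replicate 2 correlated at 0.27 between C6 fast and slow and at 0.10, 0.03 and 0.03 between the other groups compared. With the replicate block, the calls of Rgs14 ended (adjusted p = 0.0665 in C6 and 0.0577 between fast cells), as did that of Gper1 on the difference (0.0706), and the counts of members called were 2 and 2.

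Over all probe sets the count called, when the deposited scaling was kept, was 23 in place of 445 in C6, 21 in place of 93 in C6SPGFP, 25 in place of 255 on the difference, 1 in place of 424 between slow cells and 186 in place of 1042 between fast cells. The share of higher calls was then 52.2%, 100%, 96%, 100% and 93.5%, in place of 40.4%, 76.3%, 71.0%, 51.9% and 53.2%, in that order. With only the groups compared the count was 230 in C6 and 270 between slow cells. Without an array the count was 286 to 445, 21 to 107, 122 to 273, 95 to 422 and 517 to 1125, in the same order. Rgs18 without the filter, run under the other settings after its values were seen, kept its call in C6 and between fast cells in all 16, and on the difference lost it under the deposited scaling (adjusted p = 0.228) and without any 1 C6SPGFP array.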
